A study of Mus musculus with 6 samples.

Results

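The 10 Bcl2 family genes described here are Bcl2, Bcl2l1, Mcl1, Bcl2a1b, Bax, Bak1, Bcl2l11, Bbc3, Pmaip1 and Bid. They were taken by gene symbol from a table of 49315 genes, and all 10 were found and passed the filter on low values, as did 12325 genes in all. RNA-Seq was performed on 3 libraries of osteoclasts, obtained from WT bone marrow macrophages (BMMs) after 4 days in differentiation medium with 75 ng/mL RANKL, and on 3 libraries of WT BMMs at day 0 that had received no treatment. To obtain the BMMs, marrow from femur and tibia was grown in dishes with M-CSF, which was supplied by CMG14-12 cell supernatant. Both media held that supernatant, but the differentiation medium held less of it, and no library comes from cells kept for 4 days without RANKL. RANKL, the amount of M-CSF and the days in culture differ together between the groups and cannot be told apart. The replicates are labelled biological, but no animal or culture is named for any of them, so the p-values reflect library-to-library spread, which may be technical. The data are TPM values, that is, levels corrected for gene length that add up to 1000000 in a library, so levels of different genes can be compared within a library. TPM does not record how many reads lie behind a value, so depth is unknown and counting intervals cannot be set.

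Proteins of the Bcl2 family decide whether the mitochondrial outer membrane is opened during apoptosis. Anti-apoptotic members (Bcl2, Bcl-xL from Bcl2l1, Mcl1 and A1 from the Bcl2a1 genes) hold the effectors Bax and Bak in check, whereas BH3-only members (Bim from Bcl2l11, Puma from Bbc3, Noxa from Pmaip1, and Bid) bind the anti-apoptotic proteins or activate the effectors. Mature osteoclasts are short-lived cells, and Bim and Bcl-xL are among the regulators known to affect their survival in the mouse. Many of these proteins are also controlled after transcription, by ubiquitination, phosphorylation or cleavage, which RNA levels do not show.

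Libraries matched their labels by marker genes. Of 16 osteoclast markers, 16 were higher in osteoclasts, and Acp5, which encodes TRAP, measured 13052 ± 405 TPM in osteoclasts and 53.8 ± 1.55 TPM in BMMs (SD, n = 3 each). Of 13 macrophage markers, with Lyz2 the most abundant, 11 were lower in osteoclasts (limma, adjusted p under 0.05) and 1 passed in the other direction. Over all genes tested, 45.3% were higher and 23.5% were lower. Lists of other cells also moved with the groups. The 12 neutrophil markers, 2 of them listed at 0 in all osteoclast libraries (Elane and Ly6g), summed to 15.7 to 28.1 TPM in osteoclasts and 3083 to 3365 TPM in BMMs, and the 10 stromal and osteoblast markers, with Col1a1 the most abundant, to 114 to 142 TPM in osteoclasts and 7.56 to 7.96 TPM in BMMs. Mast cell and basophil markers, led in BMMs by Prss34, which was listed at 0 in all osteoclast libraries, reached at most 1.26 TPM in osteoclasts and 5.36 TPM in BMMs, and dendritic cell markers, nearly all Itgax, 39.8 TPM in osteoclasts and 61.2 TPM in BMMs. In bulk RNA, fewer cells of a type and less RNA per cell cannot be told apart. Osteoclast replicate 2 stood apart in several genes. The abundant locus Gm23935 took 0.423% of its TPM against 3.71% and 3.52% in the other osteoclast libraries and 5.72% to 7.10% in BMM libraries, and Birc6 measured 5.79 TPM in it against 9.79 and 9.48 TPM in the other osteoclast libraries, with Huwe1, Usp9x and Cbl lowest in it too. To be lowest in replicate 2 was common. From highest to lowest, 19.4% of genes tested ran replicate 1, 3, 2 and 23.5% ran replicate 3, 1, 2. A value of 0 in this table need not mean that a gene is silent, since the mitochondrial gene mt-Co2, which every cell uses, averaged 1.39 TPM over the 6 libraries and mt-Co1 7772 TPM.

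All 10 members differed between the groups in the test across all genes (limma on log2(TPM + 1), Benjamini-Hochberg adjusted p under 0.05), with 6 lower and 4 higher in osteoclasts. Of the 12325 genes tested, 23.5% were lower and 45.3% were higher by this test, and 68.9% in either direction, so a call was common among all genes. The 3 osteoclast libraries did not overlap the 3 BMM libraries for 10 of 10 members and for 73.5% of all genes tested. The median log2 fold change was -0.23 for the members and 0.19 for all genes tested. Since the typical gene lay above 0, the libraries were also scaled by median ratios, which sets the typical gene close to no change. The split of calls over all genes was then 4149 higher (33.7%) and 4131 lower (33.5%), against 5585 higher and 2901 lower with TPM as deposited. The count of members that were higher was 1 with this scaling, with quantile normalization and with rescaling after removal of the most abundant genes, whereas 6 were lower under each of these. Pmaip1 (higher) and Bcl2l1, Bcl2a1b, Bid and Bcl2 (lower) kept their calls under every alternative run, except that Bcl2 was not tested where a mean of 5 TPM was required, and the other 5 members lost theirs under at least 1.

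**Figure D1:**
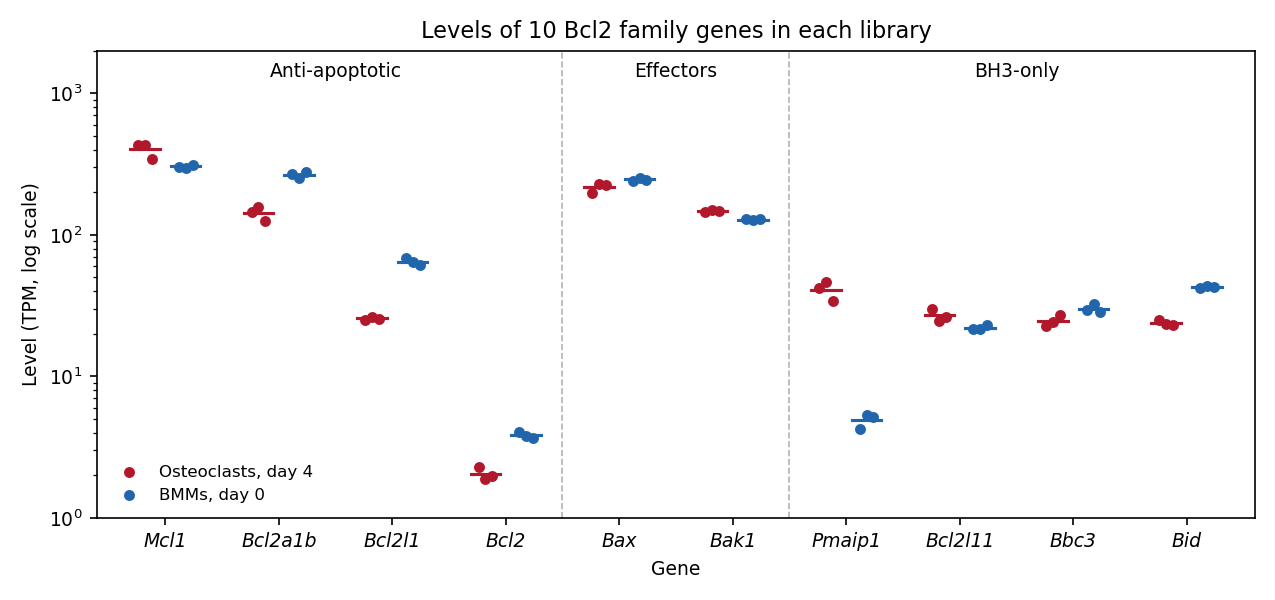
Level of each gene in TPM (log axis) by gene, in 3 osteoclast libraries (left of each pair) and 3 BMM libraries (right); each point is 1 library and each short line a group mean. Pmaip1 sits at 34.3 to 46.4 TPM in osteoclasts and 4.27 to 5.29 TPM in BMMs, and Bcl2l1 at 25.0 to 26.4 TPM in osteoclasts and 60.8 to 68.3 TPM in BMMs.

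Of the 4 anti-apoptotic members, 3 were lower in osteoclasts, against 23.5% of all genes tested, and Mcl1 remained the most abundant. Anti-apoptotic genes outside the 10 members did not share this, as Bcl2l2 (log2 fold change 0.65) and Bcl2a1a (2.24) were higher and Bcl2a1d did not pass. Mcl1 (ENSMUSG00000038612, chromosome 3 of GRCm38 from 95658788 to 95663176) encodes a short-lived guardian of the outer membrane. It measured 431, 434 and 343 TPM in the osteoclast libraries, against 302, 298 and 313 TPM in the BMM libraries. Each osteoclast library lay above every BMM library, with replicate 3 the nearest to them. The log2 fold change was 0.39 ± 0.09 (standard error, with limma's adjusted p = 0.0051), but 0.18, 0.19 and 0.22 after median-ratio scaling, quantile normalization and rescaling, where the call was lost (adjusted p = 0.099, 0.087 and 0.055).

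Bcl2l1 (ENSMUSG00000007659, chromosome 2 from 152780668 to 152831728) encodes Bcl-xL and, by alternative splicing, the pro-apoptotic Bcl-xS, which a value per gene does not separate. Its level was 25.0, 26.4 and 25.5 TPM in osteoclasts, against 68.3, 63.8 and 60.8 TPM in BMMs. The osteoclast libraries lay close together, at 0.399 times the mean of BMMs. The log2 fold change of -1.29 ± 0.06 (standard error, with limma's adjusted p = 6.7e-07) was the lowest of the 10 members and ranged from -1.50 to -1.25 over the alternatives. Bcl2l1 is abundant in red cell precursors, and the 8 erythroid markers summed to at most 0.634 TPM in any osteoclast library and 0.895 TPM in any BMM library, with 6 of them listed at 0 in all osteoclast libraries and 4 in all BMM libraries. The globin genes among them are near-identical copies, whose values are uncertain, and the part of these cells in the result was not tested.

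Bcl2 (ENSMUSG00000057329, chromosome 1 from 106538178 to 106714274), the founding member of the family, was the lowest of the 10 in both groups. It measured 2.28, 1.87 and 1.98 TPM in osteoclasts, against 4.05, 3.79 and 3.67 TPM in BMMs. The log2 fold change was -0.67 ± 0.10 (standard error, with limma's adjusted p = 4.4e-04), a scale that understates the change of a gene this low. B and T lymphocytes express Bcl2, and their marker lists of 7 genes each summed to 1.35 to 1.85 TPM and 4.57 to 6.19 TPM in osteoclasts, against 10.3 to 11.2 TPM and 8.61 to 9.81 TPM in BMMs. Of these sums, Cd4, which macrophages can also express, gave most of the T cell value, at 4.56 ± 0.758 TPM in osteoclasts and 8.18 ± 0.640 TPM in BMMs (SD, n = 3 each), and the B cell value came mostly from Cd79b, with Pax5 listed at 0 in all osteoclast libraries. The part of these cells in the result was not tested.

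Bcl2a1b (ENSMUSG00000089929, chromosome 9 from 89199209 to 89207827) is 1 of 4 mouse Bcl2a1 genes and encodes A1, a target of NF-κB in blood cells. Its coding sequence is nearly identical to those of the copies Bcl2a1a and Bcl2a1d. The first 99 coding bases of 3 copies, all in exon 1, are shown since they hold many of the differences by which a read can be placed, 6 of 11 between Bcl2a1a and Bcl2a1b and 3 of 6 between Bcl2a1d and Bcl2a1b. Sequences are from GENCODE vM21 transcripts on GRCm38, at chr9:88957051-88957149 (plus strand) for Bcl2a1a, chr9:89199360-89199458 (plus strand) for Bcl2a1b and chr9:88731621-88731719 (minus strand) for Bcl2a1d, and capitals mark bases that differ among the 3.
Bcl2a1a: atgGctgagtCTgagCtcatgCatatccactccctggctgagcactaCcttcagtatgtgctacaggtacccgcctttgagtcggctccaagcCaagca
Bcl2a1b: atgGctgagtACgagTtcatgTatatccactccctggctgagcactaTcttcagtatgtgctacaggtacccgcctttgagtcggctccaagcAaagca
Bcl2a1d: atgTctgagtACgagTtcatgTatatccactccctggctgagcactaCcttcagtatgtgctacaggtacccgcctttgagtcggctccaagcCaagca
Over the whole coding sequence of 516 bases, Bcl2a1a differed from Bcl2a1b at 11 bases and Bcl2a1d at 6, counted from the A of the start codon. Bcl2a1d carries G4T, T48C, A94C, G312A, C381G and T490A relative to Bcl2a1b. Of 668 windows of 150 bases, the length of 1 read, in the Bcl2a1b transcript, 68 were also found in Bcl2a1a, 95 in Bcl2a1d and 253 in Gm29094, an overlapping gene model on the same strand, and 41.9% were found in at least 1 of them. Reads were sequenced in pairs, and these windows do not take into account that the other read of a pair may help to place it. How reads with several matches were counted is not given in the sources used here, so levels of single copies are uncertain.

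As listed, Bcl2a1b measured 146, 158 and 125 TPM in osteoclasts, against 269, 252 and 278 TPM in BMMs, a log2 fold change of -0.90 ± 0.09 (standard error, with limma's adjusted p = 3.6e-05). Every osteoclast library lay well below every BMM library. Bcl2a1a went the other way, at 8.06, 7.39 and 8.96 TPM in osteoclasts, against 0.942, 1.11 and 0.761 TPM in BMMs, and its log2 fold change was 2.24 ± 0.11 (standard error, with limma's adjusted p = 7.7e-07). Bcl2a1d gave 6.86, 8.05 and 5.86 TPM in osteoclasts and 8.13, 5.20 and 4.33 TPM in BMMs, groups that overlap, and the log2 fold change was 0.23 (adjusted p = 0.33 from limma, and 0.031 without BMM replicate 1, where it was 0.45). Bcl2a1c was at most 0.281 TPM in any library, and Gm29094 at most 0.902 TPM in osteoclasts and 2.53 TPM in BMMs. Summed over the 4 copies, A1 transcripts measured 158 ± 17.1 TPM in osteoclasts and 273 ± 13.6 TPM in BMMs (SD, n = 3 each), and fell by 0.79 on the log2 scale (standard error 0.08, adjusted p = 5.6e-05 from limma). Bcl2a1a made up 4.25% to 6.39% of this sum in osteoclast libraries and 0.268% to 0.431% in BMM libraries. A1 genes are expressed by neutrophils, whose markers were lower in osteoclasts as given above, and the part of these cells in the result was not tested.

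The make-up of the anti-apoptotic transcripts differed more between the groups than their sum. The 4 members summed to 604, 621 and 496 TPM in osteoclasts and to 643, 617 and 656 TPM in BMMs, ranges that overlap. Mcl1 made up 70.1% ± 1.09 of the sum in osteoclasts and 47.7% ± 0.695 in BMMs (SD, n = 3 each). Bcl2a1b made up 25.0% ± 0.728 in osteoclasts and 41.7% ± 0.851 in BMMs. Bcl2l1 made up 4.51% ± 0.550 in osteoclasts and 10.1% ± 0.709 in BMMs, and Bcl2 was below 1% in both. Thus Mcl1 took a larger share in every osteoclast library, and the other members a smaller one. Within a library, the ratio of Mcl1 to Bcl2l1 was 17.2, 16.4 and 13.4 in osteoclasts and 4.42, 4.68 and 5.15 in BMMs. Ratios within a library do not change when all its values are scaled by a common factor. No test was run on sums or shares over these chosen genes.

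**Figure D2:**
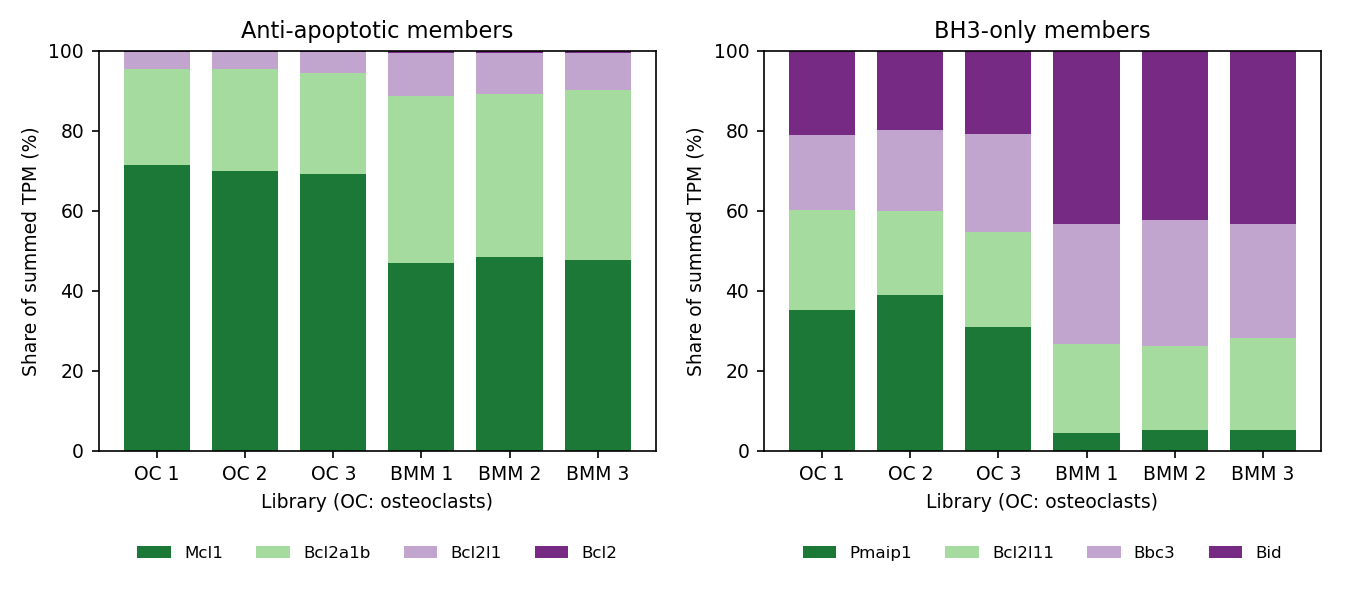
Share of the summed TPM (%) taken by each anti-apoptotic member (left) and each BH3-only member (right) in 3 osteoclast libraries (OC) and 3 BMM libraries. Mcl1 takes 69.2% to 71.3% of the anti-apoptotic sum in osteoclasts and 46.9% to 48.3% in BMMs, and Pmaip1 takes 30.9% to 39.0% of the BH3-only sum in osteoclasts and 4.39% to 5.20% in BMMs.

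Bax and Bak1, whose proteins form the pores of the outer membrane, differed little between the groups. Bax (ENSMUSG00000003873, chromosome 7 from 45461697 to 45466898) measured 197, 227 and 226 TPM in osteoclasts, against 242, 254 and 243 TPM in BMMs. The log2 fold change was -0.19 ± 0.07 (standard error, with limma's adjusted p = 0.036). This call was lost with no filter, with limma without the trend, and when any 1 of the BMM replicates or osteoclast replicate 1 was left out (adjusted p = 0.063 to 0.13), whereas after median-ratio scaling the value was -0.40 (adjusted p = 0.0039 from limma) and passed.

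Bak1 (ENSMUSG00000057789, chromosome 17 from 27019810 to 27029009) measured 145, 150 and 148 TPM in osteoclasts, against 129, 127 and 128 TPM in BMMs. The groups did not overlap and each was tight, and the log2 fold change was 0.20 ± 0.05 (standard error, with limma's adjusted p = 0.0044). That is about the median shift of all genes, and the value was -0.01 after median-ratio scaling and -0.003 after quantile normalization, neither of which passed. The ratio of Bax to Bak1 was 1.36, 1.51 and 1.53 in osteoclasts and 1.87, 2.01 and 1.89 in BMMs, so it was lower in every osteoclast library. The small shift of each gene depends on scaling, but this ratio is unchanged where a library is scaled by a common factor, as in median-ratio scaling and rescaling. Quantile normalization is not such a scaling, and the ratio was not computed after it. Of the 2238 windows of 150 bases in the longest Bak1 transcript, 140 lie in Ggnbp1 on the other strand, which was at most 1.27 TPM in any library.

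Among the BH3-only genes, Pmaip1 was the member that changed most, and Bid and Bbc3 were lower. Pmaip1 (ENSMUSG00000024521, chromosome 18 from 66458533 to 66465565) encodes Noxa, which binds Mcl1 and A1 and promotes the breakdown of Mcl1. It measured 42.0, 46.4 and 34.3 TPM in osteoclasts, against 4.27, 5.29 and 5.18 TPM in BMMs, 8.32 times as much on average. The log2 fold change was 2.82 ± 0.12 (standard error, with limma's adjusted p = 3.7e-07) and ranged from 2.62 to 3.03 over the alternatives. Of all genes tested, 98.6% had a lower log2 fold change. In order of level, Pmaip1 stood at place 5 of the 10 members in osteoclasts and at place 9 in BMMs.

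The TPM of Pmaip1 was 9.76%, 10.7% and 10.0% of that of Mcl1, the main partner of its product, in osteoclasts, and 1.41%, 1.77% and 1.65% in BMMs. The share was higher in every osteoclast library. Pmaip1, Mcl1 and Bcl2a1b all had their highest osteoclast value in replicate 2 and their lowest in replicate 3, an order that 20.4% of all genes tested had, Cycs, Vdac1 and Vdac2 among them.

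Bid (ENSMUSG00000004446, chromosome 6 from 120891930 to 120916853) encodes the protein that caspase-8 cleaves to pass a death receptor signal to mitochondria. It measured 25.2, 23.6 and 23.2 TPM in osteoclasts, against 42.2, 43.6 and 43.1 TPM in BMMs, and the log2 fold change was -0.82 ± 0.06 (standard error, with limma's adjusted p = 6.1e-06). The libraries of each group lay within a few TPM of each other. Its 3' end overlaps that of Bcl2l13 on the other strand, which was higher in osteoclasts, but no window of 150 bases in the longest Bid transcript was found in a transcript of another gene.

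Bcl2l11 (ENSMUSG00000027381, chromosome 2 from 128126038 to 128162547) encodes Bim, whose splice forms a value per gene does not separate. It measured 29.8, 24.8 and 26.3 TPM in osteoclasts, against 21.6, 21.5 and 23.0 TPM in BMMs. The groups were close but did not overlap, and the log2 fold change was 0.27 ± 0.08 (standard error, with limma's adjusted p = 0.016). The call was lost after all 3 other scalings (0.07 after median-ratio scaling, 0.08 after quantile normalization and 0.11 after rescaling) and without BMM replicate 1 or 2 (adjusted p = 0.060 and 0.061).

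Bbc3 (ENSMUSG00000002083, chromosome 7 from 16308393 to 16318205) encodes Puma, a classical target of p53. It measured 22.6, 24.0 and 27.2 TPM in osteoclasts, against 29.2, 32.5 and 28.3 TPM in BMMs, and the highest osteoclast library was just under the lowest BMM library. The log2 fold change was -0.28 ± 0.09 (standard error, with limma's adjusted p = 0.022), with no call without BMM replicate 2 or osteoclast replicate 1 (adjusted p = 0.093 and 0.072).

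Summed, the 4 BH3-only members measured 120, 119 and 111 TPM in osteoclasts and 97.3, 103 and 99.6 TPM in BMMs. Without Pmaip1 the order of the groups was the other way round, at 77.6, 72.4 and 76.7 TPM in osteoclasts and 93.1, 97.6 and 94.5 TPM in BMMs. That order is of Bid, Bbc3 and Bcl2l11 alone. All sums and shares here leave out BH3-only genes that are not among the 10 members. Of these, Bad averaged 62.3 TPM in osteoclasts and 47.5 TPM in BMMs, and Bmf 14.9 TPM in osteoclasts and 7.97 TPM in BMMs. Pmaip1 made up 35.0% ± 4.06 of the sum in osteoclasts and 4.91% ± 0.455 in BMMs, and Bid 20.6% ± 0.628 in osteoclasts and 43.0% ± 0.548 in BMMs (SD, n = 3 each). The BH3-only sum was 0.198, 0.191 and 0.224 times the anti-apoptotic sum in osteoclasts and 0.151, 0.167 and 0.152 times in BMMs. The anti-apoptotic sum divided by the sum of effectors and BH3-only genes was 1.31, 1.25 and 1.02 in osteoclasts and 1.37, 1.28 and 1.39 in BMMs, so the groups overlapped.

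**Figure D3:**
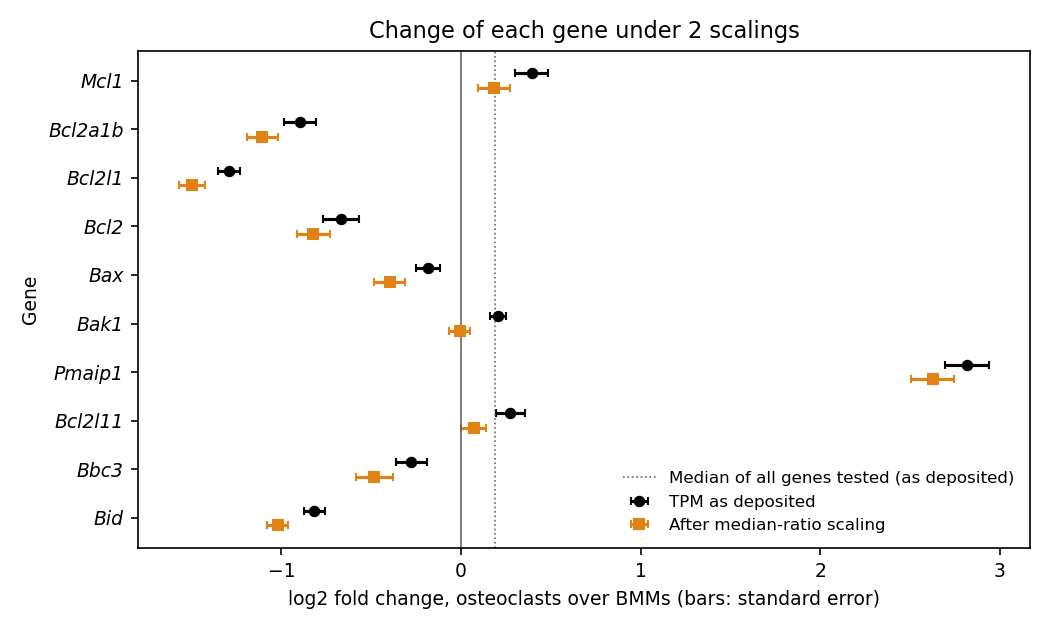
Log2 fold change of each gene, osteoclasts over BMMs, with TPM as deposited (black circles) and after median-ratio scaling (orange squares); bars are standard errors and the dotted line is the median of all genes tested, 0.19. Pmaip1 stays at 2.82 and 2.63 and Bcl2l1 at -1.29 and -1.50, whereas Bak1 moves to -0.01 after scaling.

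In osteoclasts the members ran Mcl1, Bax, Bak1, Bcl2a1b, Pmaip1, Bcl2l11, Bcl2l1, Bbc3, Bid and Bcl2 by mean TPM. The libraries of Bak1 and Bcl2a1b overlapped, as did those of each neighbouring pair among Bcl2l11, Bcl2l1, Bbc3 and Bid. In BMMs the order was Mcl1, Bcl2a1b, Bax, Bak1, Bcl2l1, Bid, Bbc3, Bcl2l11, Pmaip1 and Bcl2, and there the libraries of Bcl2a1b and Bax alone overlapped among neighbours. Bcl2l1 stood at place 7 in osteoclasts and at place 5 in BMMs. The 10 members together took 981 to 1117 TPM in osteoclast libraries and 1101 to 1128 TPM in BMM libraries.

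Of 14 further family genes in the table, 8 passed the filter, and 6 of these were higher in osteoclasts and 0 were lower, the count of 0 by limma being the same at an unadjusted p under 0.05. By comparison, 45.3% of all genes tested were higher and 23.5% were lower, so higher calls were common. Bok, an effector-like relative of Bax and Bak, measured 6.10, 7.33 and 6.17 TPM in osteoclasts, against 0.305, 0.330 and 0.373 TPM in BMMs. Its log2 fold change was 2.49 ± 0.11 (standard error, with limma's adjusted p = 3.5e-07), and it stayed below Bax and Bak1 in every library. Among BH3-only genes, Bmf, which is bound to the cytoskeleton through dynein light chain, measured 14.9 ± 2.52 TPM in osteoclasts and 7.97 ± 0.961 TPM in BMMs, and Bad, which growth factor signals hold inactive by phosphorylation, 62.3 ± 3.30 TPM in osteoclasts and 47.5 ± 0.958 TPM in BMMs (SD, n = 3 each). The log2 fold changes were 0.82 for Bmf and 0.38 for Bad, which lost its call after median-ratio scaling (0.17, adjusted p = 0.064 from limma).
The anti-apoptotic Bcl2l2, which encodes Bcl-w, was also higher, at 25.1 ± 2.10 TPM in osteoclasts and 15.7 ± 0.670 TPM in BMMs (log2 fold change 0.65). It thus reached the level of Bcl2l1 in osteoclasts, while in BMMs it was well below. Bcl2l13, an outer membrane protein that acts as a mitophagy receptor, measured 19.6 ± 2.13 TPM in osteoclasts and 10.8 ± 0.115 TPM in BMMs (log2 fold change 0.81, SD, n = 3 each). Bcl2l12 measured 8.46 ± 0.775 TPM in osteoclasts and 9.77 ± 0.910 TPM in BMMs (SD, n = 3 each), and its log2 fold change of -0.19 did not pass (adjusted p = 0.12 from limma), but it passed after all 3 other scalings (-0.38, -0.39 and -0.35) and without osteoclast replicate 2 (-0.25). Of the 6 genes under the filter, Bcl2l10 was listed at 0 in all libraries, and Bik, Hrk, Bcl2a1c, Bcl2l14 and Bcl2l15 were at most 1.26 TPM in any library.

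Downstream of the family, the 14 genes of the apoptosome and caspases split, with 7 higher, 5 lower and 2 not passing. Shares over all genes tested were 45.3% higher and 23.5% lower. After each of the 3 other scalings 5 were higher, since Casp6 (0.33 with TPM as deposited) and Dffb (0.33) lost their calls, and without any 1 of the BMM replicates 4 were lower, since Casp2 (-0.25) lost its call. Cycs, which encodes the cytochrome c released through the pores, measured 143 ± 23.6 TPM in osteoclasts and 33.5 ± 1.98 TPM in BMMs, whereas its partner Apaf1, the scaffold of the apoptosome, measured 12.0 ± 1.29 TPM in osteoclasts and 21.1 ± 0.636 TPM in BMMs (SD, n = 3 each). The log2 fold changes were 2.05 and -0.77. Casp9, the caspase that Apaf1 activates, was lower (-0.38), while Htra2, Endog, Aifm1 and Diablo, which also reside between or inside the mitochondrial membranes, were higher (1.38, 1.70, 0.98 and 0.45). In living cells, cytochrome c and Aifm1 serve respiration. Cycs has near-identical processed copies in the genome, so its level is uncertain.

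Among inhibitors of apoptosis proteins, 2 of 8 were higher, 3 lower and 3 did not pass. For this list and the next, the shares over all genes tested were 45.3% higher and 23.5% lower. Birc3 and Birc2, the ubiquitin ligases cIAP2 and cIAP1 of TNF receptor complexes, had log2 fold changes of 1.76 and 1.02, with Birc3 at 72.2 ± 5.42 TPM in osteoclasts and 20.6 ± 1.06 TPM in BMMs (SD, n = 3 each). The 3 that were lower were Naip2, Naip5 and Naip6, related sensors of inflammasomes, and Naip5 had the lowest value (-1.14). Whether reads are shared among these Naip genes was not tested. Of 7 death receptor genes tested, Tnfrsf10b was higher (0.65), and Fas (-0.62), Tnfrsf1a (-0.61) and Ripk1 (-0.49) were lower. Cflar, which encodes the caspase-8 inhibitor c-FLIP, had a value of -0.13 without passing, but it was lower after the 3 other scalings (-0.33, -0.34 and -0.30) and without osteoclast replicate 1 (-0.22, adjusted p = 0.038 from limma).

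Of 8 transcription factor genes and regulators listed for control of BH3-only genes, 3 were higher, 2 lower and 3 did not pass. Counts in this paragraph stand against 45.3% higher and 23.5% lower over all genes tested. Atf4 (1.25), Trp53 (0.76) and Mdm2 (0.55), which encodes the ligase that degrades p53, were higher, and Foxo3 (-0.92) and Foxo4 (-0.52), whose proteins can induce Bim, were lower. After the 3 other scalings Ddit3 and E2f1 were lower too. Atf4 and p53 can both induce Pmaip1, as known from other cells, but their part in its level here was not tested. Bbc3, named above as a target of p53, was lower (-0.28), and the part of p53 in its level was not tested either. As given above, this call was lost without BMM replicate 2 or osteoclast replicate 1. Of 7 ligases and deubiquitinases that act on the family, 0 were higher by limma, also at an unadjusted p under 0.05, and 3 were lower, namely Cbl, Usp9x and Itch. Cbl alone passed without any 1 of the BMM replicates, with no filter and with limma without the trend. Fbxw7 did not pass with TPM as deposited, but it was lower after median-ratio scaling (-0.25) and quantile normalization (-0.26). Its adjusted p from limma was 0.015 and 0.010 there. Itch also lost its call without osteoclast replicate 2 or 3 and with the replicate block, which left 2 lower. For Usp9x the log2 fold change was -0.35, but -0.19 without osteoclast replicate 2. Cbl, whose product ubiquitinates Bim in mouse osteoclasts, measured 22.2 ± 4.66 TPM in osteoclasts and 39.2 ± 1.69 TPM in BMMs (log2 fold change -0.81, SD, n = 3 each). Huwe1, a ligase of Mcl1, had the highest value of this list, 0.16, without passing (adjusted p = 0.51 from limma, but 0.45 and adjusted p = 4.3e-04 without osteoclast replicate 2), with 25.1, 13.5 and 25.3 TPM in the osteoclast libraries, so replicate 2 lay below all BMM libraries, which were at 17.6 to 18.9 TPM. The 4 genes of VDAC channels and Mtch2, the outer membrane partners of Bak, Bax and Bid, were all higher with TPM as deposited, from 0.36 for Vdac3 to 1.32 for Vdac1. Vdac3 lost its call after the 3 other scalings (0.15, 0.14 and 0.19), with no filter, and without any 1 of the BMM replicates or osteoclast replicate 1 (adjusted p = 0.053 to 0.29 from limma over these), which left 3.

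**Figure D4:**
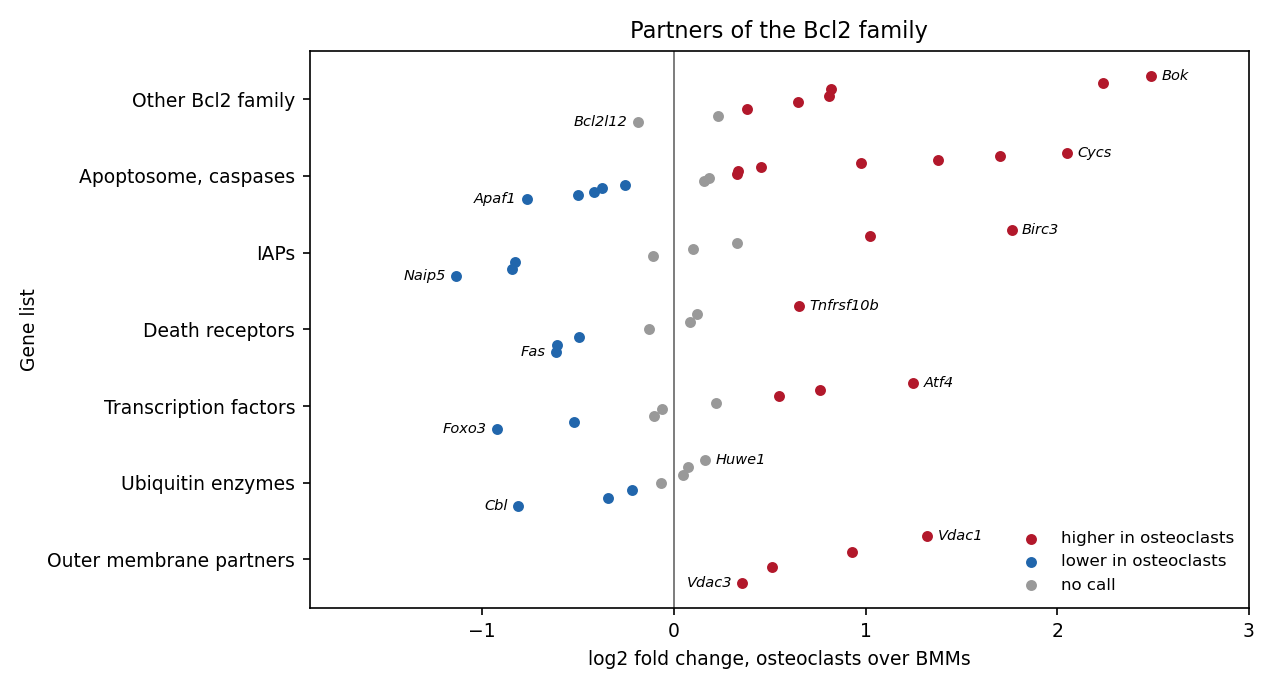
Log2 fold change, osteoclasts over BMMs, of the tested genes of 7 lists (rows), with 1 point per gene, red for higher and blue for lower at an adjusted p under 0.05 from limma, and grey for no call; the highest and lowest gene of each list are named. The other Bcl2 family genes reach 2.49 for Bok, and the apoptosome list runs from -0.77 for Apaf1 to 2.05 for Cycs.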

How the data were processed

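RNA-Seq values of 3 osteoclast and 3 BMM libraries were used as the authors deposited them, in TPM per gene. Per the labels and submitters' processing notes, the tools were bcl2fastq 2.17, Trimmomatic 0.36 for trimming and STAR 2.5.2b for alignment. How reads were counted per gene, and with which strand setting, is not given in these sources. Since TPM are not counts, the count model of the study was not used. Tests were run with limma 3.58.1 in R 4.3.3 (intensity trend, two-sided) on log2(TPM + 1) for genes whose mean reached 1 TPM, and p-values were Benjamini-Hochberg adjusted over all genes tested. The script was tested on simulated data. Coordinates and sequences are from GRCm38 with GENCODE vM21, to which 48970 of 49315 gene identifiers matched. Windows of 150 bases were compared between transcripts. Members and lists were chosen with earlier results of these data known. Genes named were all members, the other family genes tested, the highest and lowest of each list and the most abundant of each marker list, and further genes were named after their values were seen. Alternatives were other pseudocounts, filters and scalings, no trend, a replicate block, summed Bcl2a1 copies, wider role lists and leaving out each library. Values of some single list genes are not reported here.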

Additional observations from a re-analysis of the deposited data

How the results depend on the processing

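The count of members higher in osteoclasts was 4 with TPM as deposited and 1 after median-ratio scaling, 1 after quantile normalization and 1 after rescaling without the 20 most abundant genes and the mitochondrially encoded genes. Leaving out 1 library gave 3 to 4 members higher and 4 to 6 lower. Bak1 changed sign, with log2 fold changes of -0.0065 after median-ratio scaling and -0.0025 after quantile normalization. Calls over all genes were 4149 higher and 4131 lower after median-ratio scaling, 4090 and 4259 after quantile normalization, and 4480 and 3922 after rescaling. Over all genes, the median was 0.19 on the log2 scale as deposited and 0.0042 after median-ratio scaling. Of the alternatives, the wider role lists moved the ratio of anti-apoptotic to other members in BMMs to 1.25, against 1.35 with the 10 members, and in osteoclasts it was 1.09, against 1.19. Deviations of same-numbered libraries from their group means correlated at -0.05, -0.003 and -0.07. With 3 libraries a group, these values cannot show whether the replicate numbers pair the libraries. With the replicate block, 5502 genes were higher and 2821 lower, the members stayed at 4 higher and 6 lower, and Itch lost its call, which left 2 of the ligases and deubiquitinases lower. TPM keeps no read depth, so the counting error of low genes such as Bcl2 is unknown, and with 3 libraries a group the spread is estimated from few values.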
